A study of Rattus norvegicus with 10 samples.

Results

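The genes described here are 9 markers of myelin and of mature oligodendrocytes, Mbp, Mog, Mag, Mobp, Cnp, Opalin, Cldn11, Mal and Myrf, measured by RNA sequencing in the rat supraoptic nucleus. They were chosen by gene symbol, all 9 were found once each among the 32402 listed genes, and all 9 were among the 15311 genes tested. The supraoptic nucleus lies in the hypothalamus, and its large (magnocellular) neurones secrete the hormones vasopressin and oxytocin. The study compared Wistar Han rats with free access to drinking water (euhydrated, 5 libraries) with Wistar Han rats kept without drinking water for 72 h (dehydrated, 5 libraries). Cages were allotted to the groups at random, and the labels give neither age nor sex. Punches 1 mm wide were taken on both sides of 12 coronal slices, so each library holds all cells of the punched tissue. Whether a library stands for 1 animal is not stated, and p-values here rest on library-to-library spread, which may be partly technical. Euhydrated libraries 3 to 5 are numbered as in the count table.

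Oligodendrocytes wrap axons of the central nervous system in myelin, a stack of membrane layers that speeds conduction. In compact myelin the layers are sealed together by basic proteins and tight junctions. Cytoplasm remains in the non-compact loops beside the axon and at the paranodes. The transcription factor Myrf, cut free from a membrane anchor, switches on many of these genes together with Sox10. The cell bodies of magnocellular neurones send mostly unmyelinated axons to the pituitary, while the optic chiasm and optic tract, which lie beside the nucleus, are rich in myelin.

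The region before the start of transcription is shown for 4 of the genes, because Cnp and Opalin were the ones that fell, and Mag and Mal, printed for comparison, hold the same 7 letters as they do. RefSeq (build GRCr8) gave windows for 7 of the 9 genes; Mog and Myrf were not matched. Each printed run is the 250 bases before the start in that table, 5′ to 3′ on the strand of the gene. Capitals mark CTGGCAC or CTGGTAC, the letters known as the recognition motif of Myrf, and ACAAAG, a core motif of Sox factors, each on either strand. The windows are those of Cnp (chr10:86011254-86011503, plus strand), Opalin (chr1:249858191-249858440, minus strand), Mag (chr1:95291045-95291294, minus strand) and Mal (chr3:135341424-135341673, minus strand).
Cnp: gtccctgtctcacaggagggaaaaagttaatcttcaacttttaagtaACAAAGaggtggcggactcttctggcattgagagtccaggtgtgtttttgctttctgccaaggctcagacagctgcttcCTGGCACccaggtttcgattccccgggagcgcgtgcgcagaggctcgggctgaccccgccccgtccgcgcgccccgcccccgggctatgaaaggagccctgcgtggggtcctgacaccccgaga
Opalin: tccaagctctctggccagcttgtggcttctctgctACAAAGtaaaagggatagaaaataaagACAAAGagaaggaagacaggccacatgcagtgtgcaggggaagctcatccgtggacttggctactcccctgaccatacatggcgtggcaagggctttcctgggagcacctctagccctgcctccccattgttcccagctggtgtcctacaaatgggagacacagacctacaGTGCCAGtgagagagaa
Mag: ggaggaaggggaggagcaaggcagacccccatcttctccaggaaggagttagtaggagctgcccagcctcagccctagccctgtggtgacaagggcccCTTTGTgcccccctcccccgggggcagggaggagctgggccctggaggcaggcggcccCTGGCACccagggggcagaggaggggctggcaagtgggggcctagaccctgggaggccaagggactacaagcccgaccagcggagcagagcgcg
Mal: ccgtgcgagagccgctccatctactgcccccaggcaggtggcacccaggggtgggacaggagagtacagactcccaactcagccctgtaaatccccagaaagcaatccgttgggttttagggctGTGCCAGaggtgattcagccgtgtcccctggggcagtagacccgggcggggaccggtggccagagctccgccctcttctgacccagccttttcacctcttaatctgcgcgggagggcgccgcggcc

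CTGGCAC stood in all 4 printed windows. It began 124 bases before the start in Cnp and 94 in Mag on the strand of the gene, and 126 bases before it in Mal and 17 in Opalin on the other strand. Of all 33469 windows of this length, 3.78% held it, against 4 of the 7 genes matched. CTGGTAC was in the Cldn11 window and in 1.78% of all windows. ACAAAG was in windows of Mbp, Mag, Mobp, Cnp and Opalin, and in 16.3% of all windows. The Mobp window held 8 copies, Opalin 2, and Cnp and Mag 1 each. In the Opalin window 233 bases, and in the Mag window 89, lie inside an annotated gene span, and none do in those of Cnp and Mal. The matches describe letters only, and Mag and Mal, which hold CTGGCAC like Cnp and Opalin, did not pass the test.

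Levels are CPM, counts scaled to library size, with TMM adjustment of the library totals. They are not divided by gene length, so they are compared between libraries and not between genes. The comparison of dehydrated with euhydrated libraries asked which transcripts of the nucleus change after water deprivation. Of the 9 genes, 2 fell (Cnp and Opalin), 0 rose and 7 did not pass an edgeR adjusted p of 0.05. Of all genes tested 12.7% passed, 4.9% lower and 7.79% higher. Among the 1657 genes at least as abundant as the lowest of the 9 (117 CPM on average), 24.5% passed and 7.79% were lower. The median log2 fold change of the 9 genes was -0.159, against -0.0058 over all genes tested. Fewer oligodendrocytes in a punch and less RNA per oligodendrocyte cannot be told apart in such bulk samples.

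Mbp, whose protein glues the inner faces of the myelin membrane together, stood at 6600, 5580, 5150, 6970 and 7560 CPM in euhydrated libraries 1 to 5. In dehydrated libraries 1 to 5 it stood at 4750, 6120, 5380, 6160 and 5730 CPM. The groups overlapped: the highest 3 libraries were euhydrated 5, 4 and 1, and the lowest was dehydrated 1. The log2 fold change was -0.18 ± 0.12 (SE; adjusted p in edgeR of 0.372), with a 95% interval of -0.44 to 0.08. Mbp alone took 0.643% ± 0.102 (SD, n = 5) of all counts in the euhydrated group and 0.557% ± 0.0561 in the dehydrated group, and it made up 72.7% and 71.6% of the counts of the 9 genes.

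Mobp, a second basic protein of compact myelin, stood at 653, 506, 464, 654 and 687 CPM in euhydrated and at 516, 648, 573, 733 and 566 CPM in dehydrated libraries. The highest library was dehydrated 4 and the lowest euhydrated 3, so the groups overlapped. Its log2 fold change was 0.03 ± 0.14 (SE; adjusted p in edgeR of 0.915), with a 95% interval of -0.28 to 0.35. Among the 9 genes it had the widest spread within groups, an SD of 0.227 on the log2 scale.

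Cldn11, the claudin that forms the tight junctions between myelin layers, ranged from 189 to 275 CPM in euhydrated and from 204 to 262 CPM in dehydrated libraries. The means were 232 ± 32.9 and 233 ± 21.7 CPM (SD, n = 5), with a log2 fold change of 0.00 ± 0.10 (SE; adjusted p in edgeR of 0.986), or -0.02 when scaled to library totals. Mal, a proteolipid of membrane traffic in myelin-forming cells, stood at 227, 223, 206, 243 and 231 CPM in euhydrated and at 203, 267, 234, 276 and 225 CPM in dehydrated libraries. Its spread was wider in the dehydrated group, 30.3 against 13.5 CPM (SD, n = 5), and that group held both the highest and the lowest library. The log2 fold change was 0.09 ± 0.08 (SE; adjusted p in edgeR of 0.528).

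The 2 genes that fell were Opalin and Cnp. Opalin (ENSRNOG00000022386) encodes a transmembrane glycoprotein of the paranodal and inner loops. It stood at 158, 147, 139, 153 and 152 CPM in euhydrated libraries 1 to 5, and at 119, 130, 120, 136 and 127 CPM in dehydrated libraries 1 to 5. Every dehydrated library lay below every euhydrated one, and the groups separated in this direction in 3.97% of all genes tested, in the other in 6.9% and in either in 10.9%. The mean fell from 150 ± 7.36 to 126 ± 7.07 CPM (SD, n = 5), a decrease of 15.9% and a log2 fold change of -0.25 ± 0.04 (SE; adjusted p in edgeR of 0.00105). Its spread within groups, 0.0763 on the log2 scale, was the narrowest of the 9 genes. The call held in all 21 other settings tried (edgeR, DESeq2 and limma-voom adjusted p of 6.62e-06 to 0.0139), among them the fits without each library in turn. Of these, DESeq2 called 15.6% of its genes, 6.4% lower and 9.2% higher.

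Cnp (ENSRNOG00000017496), the enzyme 2′,3′-cyclic nucleotide 3′-phosphodiesterase, which keeps cytoplasmic channels through the myelin open, stood at 597, 537, 508, 576 and 643 CPM in euhydrated libraries. In dehydrated libraries it stood at 429, 529, 442, 498 and 474 CPM. Only euhydrated 3 lay below a dehydrated library, dehydrated 2. The mean fell from 572 ± 52.5 to 475 ± 40.6 CPM (SD, n = 5), a decrease of 17.1% and a log2 fold change of -0.27 ± 0.07 (SE; adjusted p in edgeR of 0.0327). This call was less stable than that of Opalin. Leaving out any of euhydrated 1, 4 and 5 and dehydrated 1, 3 and 5 ended it (edgeR adjusted p of 0.0541 to 0.0805, log2 fold changes of -0.22 to -0.27). In the authors' deposited table the adjusted p was 0.0011 for Cnp and 6.71e-06 for Opalin, and 0.126 or more for the other 7. In the authors' deposited table, of all genes with an adjusted p, 15.4% passed, 6.32% lower and 9.05% higher.

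For the surface proteins of the sheath the estimates lay below 0 and did not pass. Mag, the adhesion lectin of the innermost membrane that faces the axon, stood at 351, 322, 295, 364 and 381 CPM in euhydrated and at 266, 335, 283, 334 and 316 CPM in dehydrated libraries. Its log2 fold change was -0.16 ± 0.09 (SE; adjusted p in edgeR of 0.27), with a 95% interval of -0.35 to 0.03. Mog, an immunoglobulin-type protein of the outermost layer, stood at 133, 117, 105, 127 and 143 CPM and at 97.8, 121, 96.7, 122 and 111 CPM. Its log2 fold change was -0.19 ± 0.10 (SE; adjusted p in edgeR of 0.25), with a 95% interval of -0.40 to 0.03. In both genes dehydrated 2 and 4 lay among the euhydrated libraries, above euhydrated 2 and 3.

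Myrf, the regulator of the myelin genes, stood at 148, 127, 124, 131 and 153 CPM in euhydrated libraries and at 119, 154, 121, 166 and 137 CPM in dehydrated libraries. Dehydrated 4 and 2 were its highest libraries and dehydrated 1 and 3 its lowest. The log2 fold change was 0.03 ± 0.10 (SE; adjusted p in edgeR of 0.896), with a 95% interval of -0.20 to 0.27. The plot of levels by library puts the separated Opalin values beside the overlapping ones of the other genes.

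**Figure D1:**
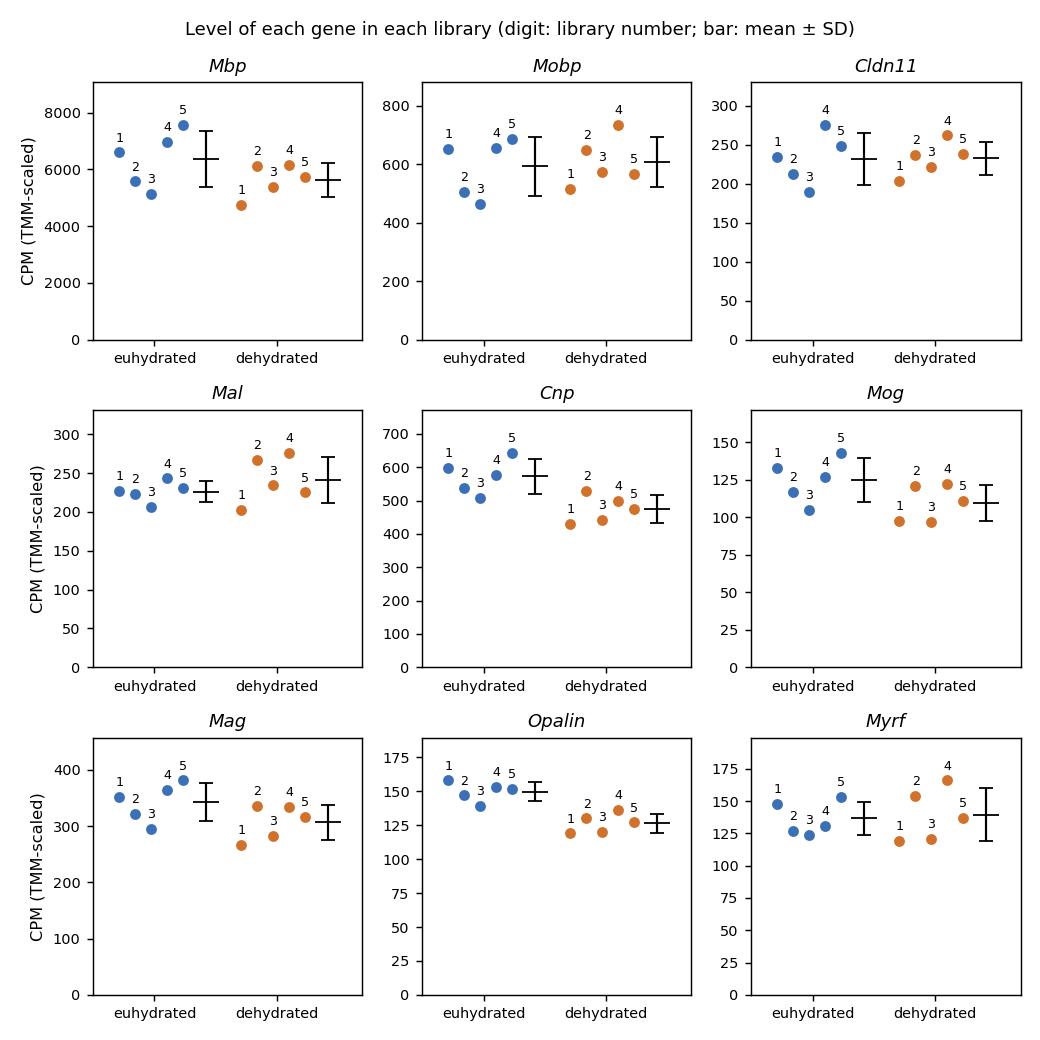
TMM-scaled CPM (vertical axes from 0) of the 9 genes in 5 euhydrated (blue) and 5 dehydrated (orange) libraries; digits are library numbers and black bars the mean ± SD of each group. Opalin lies between 139 and 158 CPM in euhydrated and between 119 and 136 CPM in dehydrated libraries, while the groups of the other 8 genes overlap.

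Levels of the 9 genes varied together from library to library within each group. Dehydrated 1 was among the 3 lowest libraries for 9 of 9 genes and the lowest for 6. Euhydrated 5 was among the 3 highest for 8 genes and the highest for 4, and euhydrated 4 was among the 3 highest for 8. Euhydrated 3 was among the 3 lowest for 7 genes, and dehydrated 4 was the highest for 3 (Mobp, Mal and Myrf). After each group mean was subtracted, Pearson correlations of log2 CPM over the 10 libraries ran from 0.643 (Cldn11 with Myrf) to 0.967 (Mog with Cnp) in the 36 pairs, with a median of 0.877. These are descriptions without a test, and the points share the library and the punch.

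**Figure D2:**
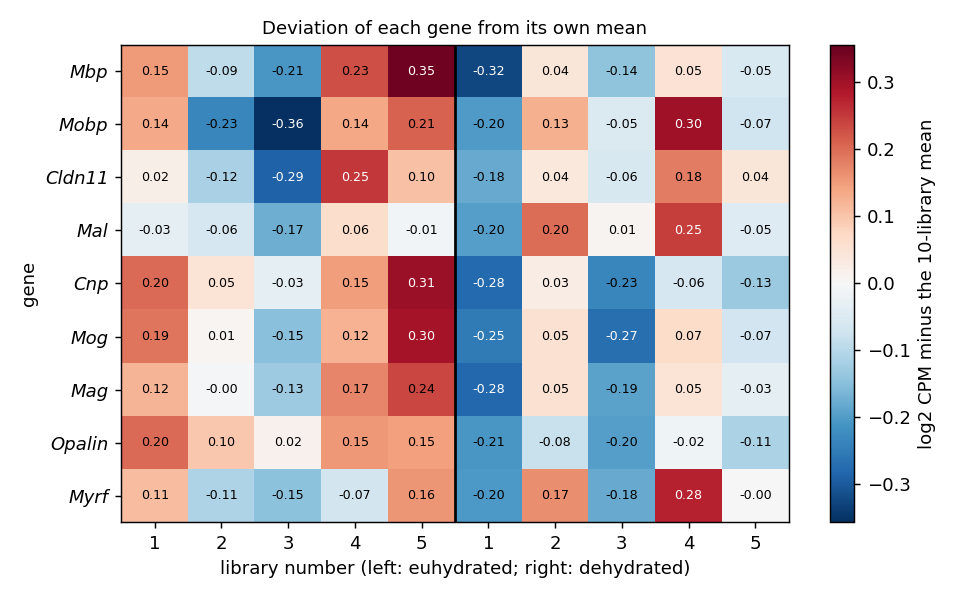
Deviation of each gene from its own mean over the 10 libraries (log2 CPM, colour and printed value), with euhydrated libraries on the left of the black line and dehydrated ones on the right. Columns share a sign for most genes: all 9 values are below 0 in dehydrated library 1, and Opalin is the row in which the sign follows the group.

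Together the 9 genes took 0.884% ± 0.129 (SD, n = 5) of the counts in euhydrated libraries, with a range of 0.723% to 1.03%. In dehydrated libraries they took 0.778% ± 0.0774, with a range of 0.666% to 0.849%. Without Mbp the shares were 0.240% ± 0.0263 and 0.221% ± 0.0222. These ranges overlap, and dehydrated 1 and euhydrated 3 hold the lowest share of their groups.

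Relative to the mean of the 9 genes in the same library, most of that common variation was absent. Subtracting their own mean takes out what they share, so this follows from the calculation. The SD within groups dropped to between 0.0288 (Mag) and 0.0918 (Mobp) on the log2 scale, from between 0.0763 (Opalin) and 0.227 (Mobp) before. Opalin was the exception, with 0.0837 relative to the mean and 0.0763 as it stands. On this relative scale Cnp went from 0.60 to 0.72 in euhydrated libraries to 0.41 to 0.55 in dehydrated ones, and Mog from -1.58 to -1.47 to -1.69 to -1.58. The 2 groups did not overlap for either, although Mog touched at the second decimal. Mal went the other way, from -0.78 to -0.58 up to -0.56 to -0.41, with no overlap. The relative levels of 1 library sum to 0, so some genes must lie higher where others lie lower, and no test was made on them. Of all genes tested, 3.25% did not overlap on this scale, 0.353% lower and 2.9% higher. That share is no like background for the 9 genes, since the mean subtracted is their own.

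A second fit took the level of other oligodendrocyte genes as a covariate. It used the mean log2 CPM of 51 genes, the lists of myelin structure and of mature oligodendrocytes described further on, none of them among the 9. The 51 include Nfasc, which neurones express too, and the axonal adhesion gene Cntn2, so they are not genes of oligodendrocytes alone. That level was 6.19 ± 0.101 (SD, n = 5) in the euhydrated group and 6.07 ± 0.123 in the dehydrated group, with overlapping ranges of 6.06 to 6.30 and 5.91 to 6.21. It was lowest in dehydrated 1 and highest in euhydrated 5, as for the 9 genes. Because it was 0.11 lower on average in the dehydrated group, the covariate carries a part of the group difference.

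With this covariate the 9 genes split in direction: 2 were lower, 3 higher and 4 not past the threshold. Of all genes tested 9.84% passed, 3.59% lower and 6.25% higher. That share is no like background for the 9 genes, since the covariate varied with them from library to library. Their SE fell (Mobp from 0.14 to 0.06), while that of the neuronal marker Tubb3 did not (0.03 and 0.04). All 9 estimates were higher than with groups alone, and the 3 higher calls were absent there. Opalin (-0.18 ± 0.03, SE, log2; edgeR adjusted p = 0.00264) and Cnp (-0.15 ± 0.04; 0.0192) were again the lower ones. Mobp (0.25 ± 0.06; edgeR adjusted p = 0.0148), Mal (0.21 ± 0.05; 0.0165) and Myrf (0.19 ± 0.05; 0.0176) were higher in dehydrated libraries once that level was fitted. Cldn11 had 0.16 ± 0.06 (edgeR adjusted p = 0.0902). Mbp, Mag and Mog had 0.01 ± 0.05, -0.01 ± 0.03 and -0.03 ± 0.04, with 95% intervals of -0.09 to 0.11, -0.08 to 0.05 and -0.11 to 0.06.

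The calls of this second fit depended on single libraries, except that of Opalin. When each library was left out in turn, with the covariate kept, Opalin passed in 10 of 10 fits, Myrf in 8, and Cnp, Mobp and Mal in 7 each. Without dehydrated 4 only 1 of the 9 genes, Opalin, passed. Signs held in all 10 fits for Opalin, Cnp, Mobp, Mal, Myrf, Cldn11 and Mog: the log2 fold changes ran from -0.20 to -0.17 for Opalin, from -0.18 to -0.11 for Cnp, from 0.20 to 0.30 for Mobp, from 0.17 to 0.24 for Mal and from 0.15 to 0.21 for Myrf.

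**Figure D3:**
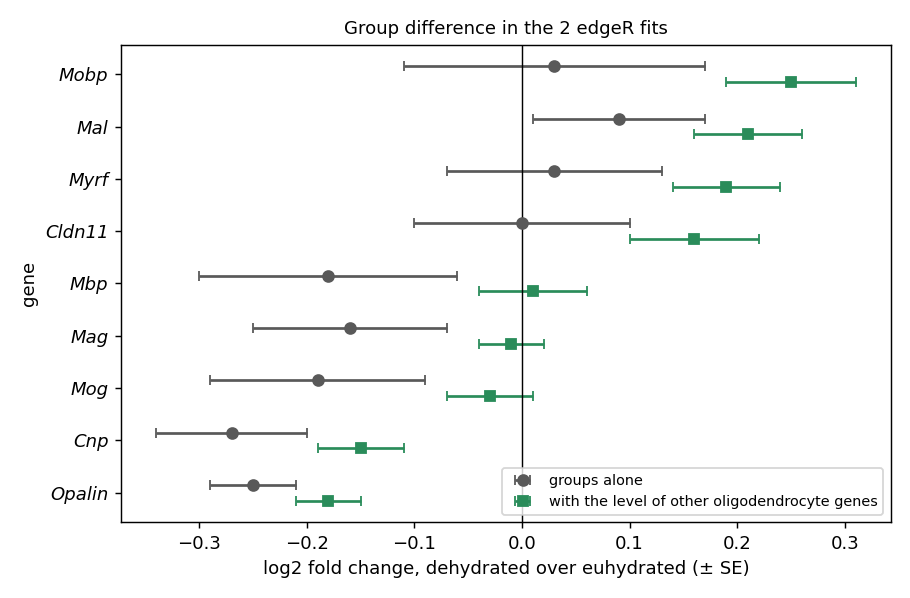
Log2 fold change (dehydrated over euhydrated, ± SE) of the 9 genes in the edgeR fit on groups alone (grey circles) and in the fit with the level of 51 other oligodendrocyte genes as a covariate (green squares). Opalin and Cnp lie below 0 in both fits, and Mobp, Mal and Myrf lie at 0.19 to 0.25 with the covariate and at 0.03 to 0.09 without it.

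Other genes of myelin and its cells were read from lists, which were chosen with earlier results of these data known. Each list is to be read beside all genes tested, of which 4.9% fell and 7.79% rose, with a median log2 fold change of -0.0058. Of 25 other genes of myelin structure and adhesion 3 fell, 3 rose and 19 did not pass, with a median log2 fold change of -0.069. Pllp, for the proteolipid plasmolipin, fell from 99.2 ± 8.77 to 78.3 ± 4.59 CPM (SD, n = 5; adjusted p in edgeR of 0.00163). Tppp, a tubulin-binding protein of oligodendrocytes, fell by 0.23 on the log2 scale (adjusted p in edgeR of 0.00398), and Septin4 by 0.18 (0.00839). With the erythrocyte level as a covariate the calls of Tppp and Septin4 ended (adjusted p in edgeR of 0.110 and 0.0508) and that of Pllp did not (0.0417). The log2 fold changes were then -0.18 for Tppp, -0.20 for Septin4 and -0.32 for Pllp, so the decrease of Septin4 was no smaller. Its SE rose from 0.04 to 0.06. Nfasc, a cell adhesion gene of the nodal and paranodal region that neurones express too, rose from 445 ± 13.2 to 512 ± 25.1 CPM (edgeR adjusted p = 0.00123). Mtmr2 (0.17, edgeR adjusted p = 0.00829) and the axonal adhesion gene Cntn2 (0.16, 0.0461) were the other 2 that rose.

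Of 26 other genes typical of mature oligodendrocytes 2 fell, 0 rose and 24 did not pass. Their median log2 fold change was -0.186, against -0.0058 over all genes tested, and 22 of the 26 estimates were below 0. These estimates come from the same libraries and punches, so they are not 26 separate observations. Ninj2, for a cell adhesion protein, fell from 8.24 ± 0.731 to 6.22 ± 0.596 CPM (SD, n = 5; adjusted p in edgeR of 0.00814). Efnb3, for an ephrin, fell from 109 ± 7.72 to 94.9 ± 4.40 CPM (edgeR adjusted p = 0.00915). That call ended with the erythrocyte covariate (edgeR adjusted p = 0.140), at a log2 fold change of -0.18 against -0.20 with groups alone.

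Of 20 genes listed under myelin lipid metabolism 4 fell, 0 rose and 16 did not pass, with a median log2 fold change of -0.092. The desaturase genes Scd (57.3 ± 6.20 to 41.7 ± 6.13 CPM, edgeR adjusted p = 0.0162) and Scd2 (4090 ± 247 to 3540 ± 93.1 CPM, 0.00223) make monounsaturated fatty acids. Gamt is in the list although it encodes an enzyme of creatine synthesis, which oligodendrocytes express. It fell by 0.35 on the log2 scale (adjusted p in edgeR of 0.0112), and Psap, for the precursor of the saposins, by 0.10 (0.040). In each of these 4 genes every dehydrated library lay below every euhydrated one, as in 3.97% of all genes tested. They were named because they fell in these same libraries, so the separation adds no support. Of 18 cholesterol genes 2 fell, 0 rose and 16 did not pass (median -0.044). Hmgcs1, the synthase that feeds the mevalonate pathway, fell by 0.24 (edgeR adjusted p = 0.0189) and Mvd by 0.17 (0.0309). With the level of erythrocyte markers, which was lower in dehydrated libraries, as a covariate, all 6 of these calls ended. The edgeR adjusted p was 0.209 for Scd, 0.0952 for Scd2, 0.275 for Gamt, 0.218 for Psap, 0.252 for Hmgcs1 and 0.183 for Mvd. Log2 fold changes were then -0.31 for Scd (-0.46 with groups alone), -0.16 for Scd2 (-0.21), -0.18 for Gamt (-0.35) and -0.16 for Hmgcs1 (-0.24). Those of Psap and Mvd stayed at -0.10 and -0.17. The same covariate cut the calls over all genes from 1942 to 799. Calls also ended in 8 of the 10 fits without 1 library for Psap, in 6 for Mvd and in 1 for Hmgcs1, and with the replicate block for Scd, Hmgcs1 and Psap (edgeR adjusted p of 0.0827, 0.0861 and 0.0529).

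Of 17 other transcription factors of the lineage 1 fell and 16 did not pass (median -0.099). That factor, Nkx2-2, was low, at 8.46 ± 0.582 and 6.40 ± 1.26 CPM (SD, n = 5; adjusted p in edgeR of 0.0335), and its call ended when any 1 of 7 libraries was left out (edgeR adjusted p of 0.0581 to 0.0847). Of 18 precursor genes tested 1 rose and 1 fell (median -0.015): Cspg4, the proteoglycan NG2 that pericytes carry too, rose by 0.23 (edgeR adjusted p = 0.0198) and Ptpro fell by 0.11 (0.0454). The call of Ptpro ended in 13 of 21 other settings, 8 of them fits without 1 library (edgeR adjusted p of up to 0.108), and that of Cspg4 in 4. Precursor gene levels summed to 1440 to 1550 CPM in euhydrated and 1420 to 1580 CPM in dehydrated libraries.

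**Figure D4:**
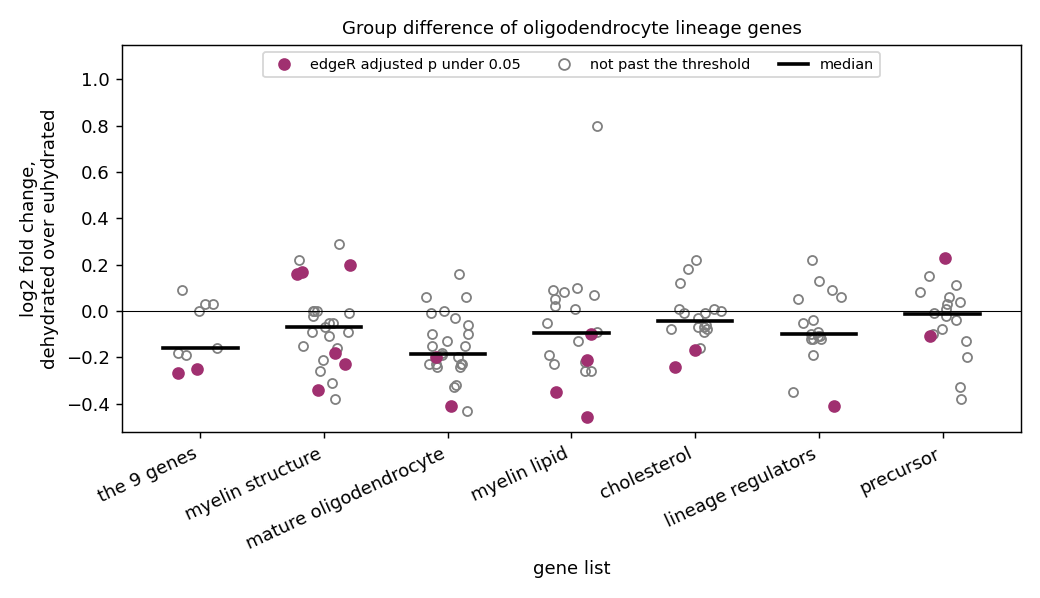
Log2 fold change (dehydrated over euhydrated) of each tested gene in 7 lists of the oligodendrocyte lineage and of lipids, with filled points for an edgeR adjusted p under 0.05, open points for the rest and a black line at the median. Among these 7 lists, the medians of the 9 genes (-0.159) and of the other mature oligodendrocyte genes (-0.186) lie lowest, and the highest open point is Sgms2 of the lipid list at 0.80 (edgeR adjusted p = 0.0568).

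The 8 genes whose library pattern was most like that of the 9 were taken from 11603 genes with at least 5 CPM, by Pearson correlation after group means were subtracted. They were Retreg3 (0.981), Enpp2 (0.971), Slain1 (0.970), Snx15 (0.970), Ermn (0.969), Pls1 (0.965), Galnt6 (0.961) and Evi2a (0.955), each over 10 libraries and with no test. Spearman's rho was 0.915 to 0.988. Enpp2 and Evi2a are in the list of mature oligodendrocyte genes and Ermn in that of myelin structure. No astrocyte marker was among the first 50, but only 12 were listed, so their absence says little. None of the 8 passed the group comparison in edgeR: Enpp2, which encodes autotaxin, and Snx15 came nearest (-0.24 ± 0.08 and -0.25 ± 0.08, SE, log2; edgeR adjusted p = 0.0908 and 0.067), while Retreg3, Pls1 and Galnt6 had -0.03, -0.03 and 0.00. With DESeq2, Enpp2, Evi2a and Snx15 passed at the same estimates (adjusted p = 0.0141, 0.036 and 0.0406). Enpp2 also passed with limma-voom (adjusted p = 0.0456), with the replicate block (0.0317) and without dehydrated 4 (0.0345), and Snx15 with library totals (0.0347) and without euhydrated 3 or dehydrated 4 (0.0316 and 0.0186).

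Library depth and other cells of the punch bear on these values. Totals were 24268398 to 28491926 counts. Scaling to library totals shifted the split of all calls from 1192 higher and 750 lower to 904 and 1173, and Cnp and Opalin remained the 2 genes called. Erythrocyte markers were lower in dehydrated libraries: all 6 tested had log2 fold changes below 0, 1 fell (Slc4a1, edgeR adjusted p = 0.0291, a call lost in 8 of 20 other settings), and their summed level was 1010 to 2030 CPM in euhydrated and 582 to 1410 CPM in dehydrated libraries. With their level as a covariate Opalin stayed past the threshold and Cnp did not (-0.25 ± 0.10, SE, log2; edgeR adjusted p = 0.217). Their part in the result beyond this was not tested.

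Of 12 astrocyte markers 1 rose (Aldoc, 0.13, edgeR adjusted p = 0.0438, a call lost in 11 of 21 other settings, library totals among them), and their summed level was 7190 to 8450 against 7260 to 8570 CPM. With the astrocyte level as a covariate Cnp had an adjusted p of 0.0503 in edgeR at the same log2 fold change of -0.27. Among microglial markers 8 of 12 estimates were below 0 (median -0.089), among endothelial and mural markers 11 of 13 were above 0 (median 0.128), and among meningeal markers 6 of 7 (median 0.169). The endothelial and meningeal medians were near that of the 9 genes in size and opposite in sign, and their part in the result was not tested. The summed levels of microglial markers (0 of 12 past the threshold, 470 to 533 against 456 to 523 CPM), endothelial and mural markers (0 of 13, 837 to 937 against 822 to 1070 CPM) and meningeal markers (0 of 7, 830 to 1030 against 853 to 1050 CPM) overlapped between groups. The most abundant of them, Ctss, Csf1r, Myh11, Acta2, Igf2 and Aldh1a2, had log2 fold changes of 0.15, -0.10, 0.25, 0.23, 0.06 and 0.10. The meningeal genes Slc6a13 and Fmod, singled out after their values were seen, had 0.39 and 0.36 (edgeR adjusted p = 0.0945 and 0.166). Of 11 general neuronal markers 1 rose (Tubb3, 0.18, edgeR adjusted p = 0.00255) and 1 fell (Nefl, -0.19, 0.00519). Of 9 magnocellular genes 5 rose, led by Creb3l1, Caprin2, Pdyn and Scg2 (log2 fold changes of 1.91, 1.81, 1.03 and 0.97). Avp for vasopressin (0.46, edgeR adjusted p = 0.08), Oxt for oxytocin (0.18, 0.254), Otp (0.07, 0.665) and Sim1 (0.09, 0.623) did not pass. The summed level of this list was 11400 to 14700 against 16000 to 20100 CPM, and Avp was its largest part (means of 6150 and 8480 CPM).

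Several of the 9 genes are also made by Schwann cells of peripheral nerve. Prx, for a scaffold protein of peripheral myelin, was low, at 2.86 ± 0.281 and 3.72 ± 0.450 CPM (SD, n = 5), and did not pass (adjusted p in edgeR of 0.0568). Of 8 Schwann cell genes tested 1 rose (Scn7a, 0.52, edgeR adjusted p = 0.0339, a call lost in 9 of 21 other settings, 7 of them fits without 1 library), and the median of the list was 0.194, opposite in sign to that of the 9 genes. Their part in the result was not tested.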

How the data were processed

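RNA was measured in supraoptic nucleus punches, with polyadenylated RNA and a stranded kit per the labels. The deposited count table gives the authors' raw counts for each Ensembl gene. They also deposited a table of log2 fold changes, p-values, Wald statistics (a score) and normalised counts (a signal). Checked against the counts, 100% of that signal equalled count over 1 size factor per library, within 1% or 0.1. STAR, featureCounts and DESeq2 1.28.1 are named, besides CASAVA and FastQC, per the submitters' processing notes. The build, the annotation and whether counting used strand are not given here, so genes that overlap others are uncertain.

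The columns of euhydrated libraries 3 to 5 were tied to the group only, since labels number them in 2 ways. Library pairs differed beyond sampling noise (chi-square over its degrees of freedom, 5.05 to 12.7). Genes were filtered with filterByExpr, scaled by TMM and compared with edgeR 4.0.16 (glmQLFTest, robust) in R 4.3.3, with Benjamini-Hochberg adjustment over all genes and a threshold of 0.05; log2 CPM used a prior count of 2. The test was tested on simulated data, with 2 false calls. It recovered 0% of 1.1-fold changes, 46% of 1.25-fold, 83.7% of 1.5-fold and 91.7% of 2-fold ones. Genes that did not pass may therefore still differ by small folds, such as the 1.12 to 1.14 estimated for Mbp, Mog and Mag. Alternatives used DESeq2 1.42.0, limma 3.58.1, other scalings and filters, covariates, a block by number and each library left out.

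Genes and lists were chosen with earlier results of these data known. From each list up to 4 genes that passed were named, by size of change, or the 2 of highest CPM where none passed. Cntn2, Mtmr2, Sgms2, Slc6a13, Fmod and Prx were named after their values were seen.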

Additional observations from a re-analysis of the deposited data

Results flagged for a closer look

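Of 96 groups of 5 libraries examined, counting each named gene in each group, 1 held a library that stood apart, and chance alone gives about 1 in 20. It was a meningeal marker and not one of the 9 genes: Aldh1a2 stood at 112 CPM in euhydrated library 3, with the next library at 92.9 CPM. None of the 18 groups of the 9 genes was marked in this way.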

How the results depend on the processing

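Opalin kept its sign and its call in all 21 other settings tried on the groups. The count of the 9 genes past the threshold was 2 with groups alone, 1 (Opalin) with no filter on low counts, with the erythrocyte covariate and with the astrocyte covariate, and 5 with the other oligodendrocyte genes as covariate. It was 1 to 2 when each library was left out, and 1 to 6 when libraries were left out with that covariate kept, a setting chosen after seeing the data (5, 3, 3, 6 and 5 without euhydrated 1 to 5, and 5, 3, 5, 1 and 4 without dehydrated 1 to 5). Over all genes, 799 passed with the erythrocyte covariate and 1942 with groups alone. In the lists of myelin structure, mature oligodendrocyte, lipid, cholesterol and regulator genes together, 15 genes passed (11 to 18 without 1 library), 23 with library totals, 27 with DESeq2 and 5 with the erythrocyte covariate. Estimates near 0 changed sign: Cldn11 to -0.02 with library totals, Myrf to -0.02 with the erythrocyte covariate, Galnt6 to 0.00 with the astrocyte covariate, and Retreg3 to 0.03, Pls1 to 0.13 and Galnt6 to 0.17 with the oligodendrocyte covariate. Mbp, which was not near 0 with groups alone, went from -0.18 to 0.01 with the oligodendrocyte covariate. Without 1 library at a time, log2 fold changes ran from -0.04 to 0.09 for Mobp, -0.06 to 0.08 for Cldn11, -0.04 to 0.08 for Myrf, -0.08 to 0.02 for Pls1 and -0.06 to 0.06 for Galnt6. The cause of these changes was not tested.

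Libraries with the same number had correlations of -0.0682 to 0.141 in the 5 pairs, and 1 of 5 euhydrated libraries matched its own number best. Some euhydrated libraries are tied to the group only, so their pairing by number is not established. These correlations therefore cannot decide whether samples with the same number were handled together. With the replicate block, 1956 genes and 2 of the 9 (Cnp and Opalin) passed. With 5 libraries a group, 95% intervals were as wide as -0.28 to 0.35 (Mobp, log2 scale).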
